A study of Rattus norvegicus with 21 samples.

Results

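The genes described here belong to fatty acid oxidation and to the wider set of genes that the nuclear receptor PPARalpha is known to switch on. A list of 31 genes was drawn up, and each gene was followed through probe sets whose platform symbol is exactly that gene, taking the probe set with the highest mean over all 21 arrays. That rule gave a probe set of its own to 30 of the 31 genes, out of 14218 genes that some probe set names alone (31099 probe sets in all, 20832 of which carry 1 gene symbol). The remaining gene, the peroxisomal thiolase gene Acaa1a, is represented by a probe set that it shares with its neighbour in sequence Acaa1b, and it is given apart. The rule that picked probe sets used no response to dosing, and the effects of dosing were tested. The list was drawn up with earlier results of these data known, so its counts are not an independent test.

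Liver RNA of male rats was hybridised to Affymetrix expression arrays, with 1 array per animal. In the PBO study, 12 Sprague-Dawley rats received piperonyl butoxide (PBO, an insecticide synergist) by mouth for 7 days, with 3 vehicle animals given 0.5% methyl cellulose (0 mg/kg) and 3 animals at each of 500 mg/kg, 1000 mg/kg and 1500 mg/kg. In the DAM study, 9 Fischer344 rats ate diets with dammar resin (DAM, a plant resin) for 28 days, with 3 animals on the basal diet, 3 on a 2% diet equivalent to 800 mg/kg and 3 on a 5% diet equivalent to 2000 mg/kg. RNAlater preserved the PBO livers and liquid nitrogen the DAM livers, so compound, strain, route, duration and storage differ together between the studies and cannot be told apart. The sources used here state no age of the animals. The labels call the 3 arrays of a group biological replicates, and this number of arrays limits the precision of every value.

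Fatty acids are burned in liver mitochondria and peroxisomes by rounds of dehydrogenation, hydration, a further dehydrogenation and thiolytic cleavage. Carnitine esters carry long chains into mitochondria, electron transfer flavoprotein passes electrons to the respiratory chain, and auxiliary isomerases and reductases handle unsaturated chains. In rodent liver, PPARalpha agonists are known to induce peroxisomal and mitochondrial oxidation enzymes, microsomal omega-hydroxylases and acyl-CoA thioesterases, and to enlarge the peroxisome population. The same receptor responds to fatty acids released during fasting, when Pdk4, Angptl4, Plin2 and Cpt1a are among its known targets.

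Hepatocyte markers were abundant in all groups, and the summed signal of 7 of them ranged from 253048 to 317465 in PBO controls and from 238204 to 290262 at PBO 1500 mg/kg, and from 188303 to 231602 in DAM controls and from 207922 to 244128 at DAM 2000 mg/kg. The ratio of 3' to 5' Gapdh signal was 1.07 to 1.19 in the PBO study and 1.52 to 2.01 in the DAM study, and that of actin 2.38 to 3.16 and 5.56 to 9.81. Arrays had been scaled to a common trimmed mean of 500.2 to 500.3. PBO 1500 mg/kg replicate 3 stood apart, with a root mean square deviation from its group mean of 0.495 log2 units, the highest of the 12 PBO arrays. Results that rest on it are given with and without it. In bulk liver, fewer cells of a type and less RNA per cell cannot be told apart.

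At PBO 1500 mg/kg, 19 of the 30 members were higher than in controls, 1 was lower and 10 did not pass the test. The rises ran through mitochondrial oxidation, the peroxisomal pathway, the thioesterases and Cyp4a1, with a median change over all members of 0.66 log2 units against -0.08 over all 18625 probe sets tested. Among all probe sets, 8.08% were called higher and 9.26% lower in the same comparison. Acot1 passed the filter on low values only through the 1500 mg/kg group, so its call is no support: without it 18 of 29 members were higher and 1 lower, with a median of 0.66. Changes are differences of log2(signal + 16), which understate the change of dim probe sets, and a member was called where limma's adjusted p, taken over all probe sets tested, was under 0.05. The 3 dosed animals lay above all 3 controls for 21 of the 30 members and below them for 2, where 14.4% of all probe sets lay above and 19% below. Under median scaling and under quantile normalization the count of called members was 20 higher and 1 lower each time, with 16.6% and 17.1% of all probe sets called. In a fit of the 6 arrays of those groups alone, 13 members were called, and 8.32% of all probe sets against 17.3% in the fit of all PBO arrays. In the same comparison all 4 tested erythroid and 3 of 6 macrophage markers were lower, and their part in these changes was not tested.

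**Figure D1:**
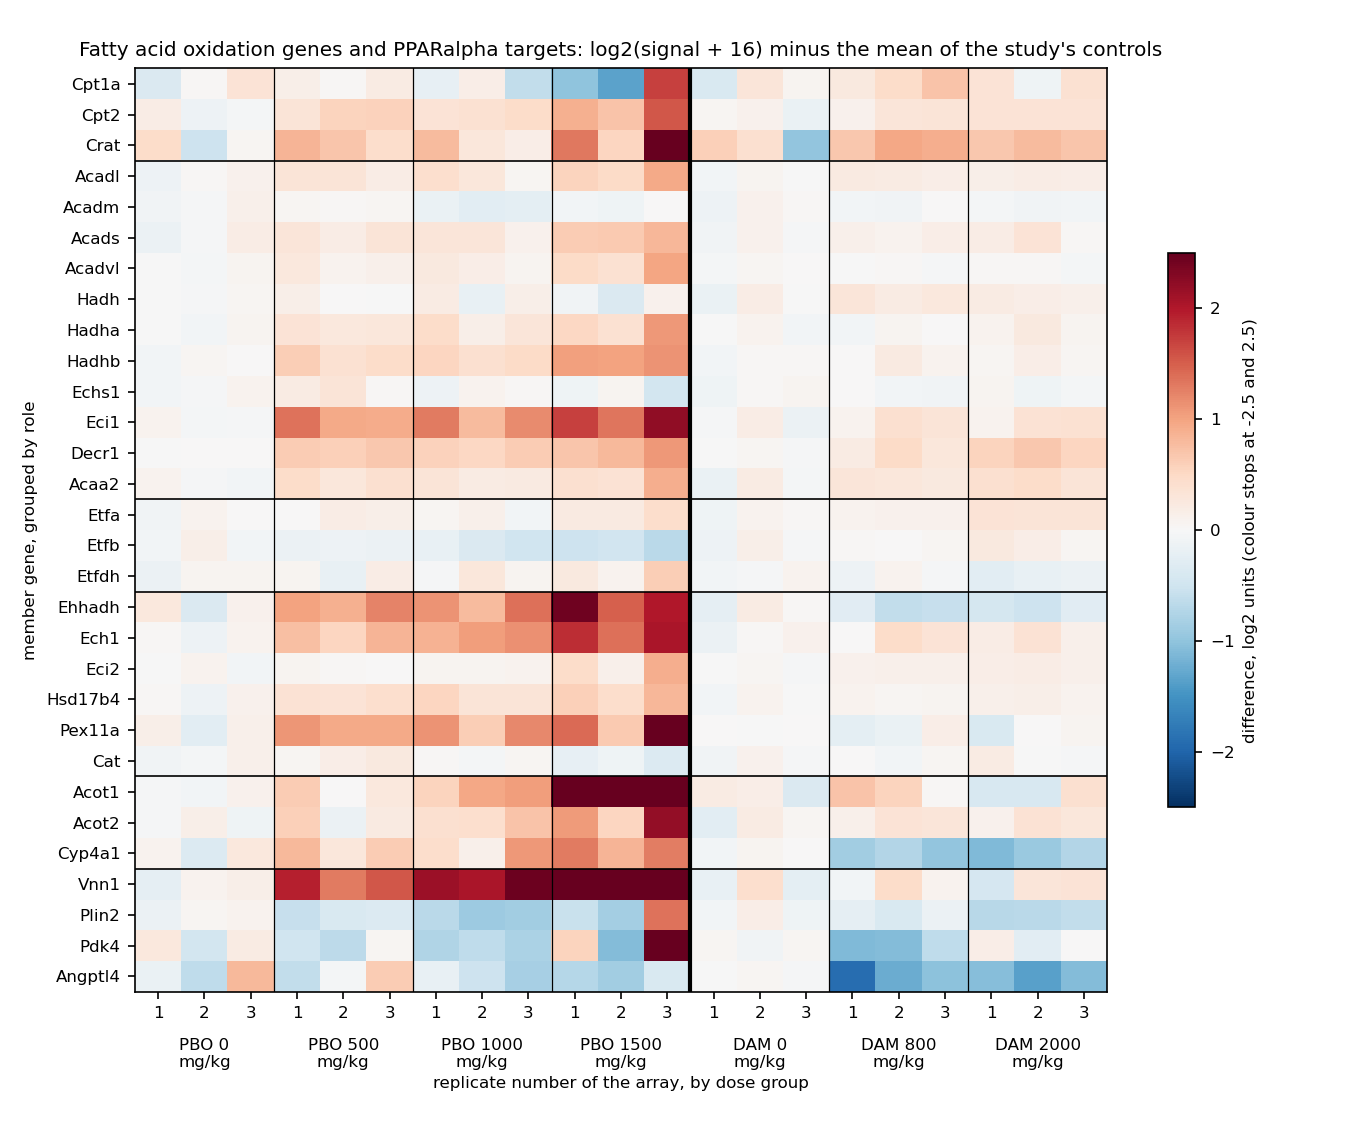
Each row is a member and each column an array, ordered by study and dose, and colour gives log2(signal + 16) minus the mean of the 3 controls of that study. Rows of Eci1, Ehhadh, Ech1, Pex11a and Vnn1 are red at all PBO doses, the column of PBO 1500 mg/kg replicate 3 is the most deeply coloured, and Cyp4a1, Pdk4 and Angptl4 are blue at DAM 800 mg/kg. Acot1 lay below the filter in the DAM study and its colours there carry no test.

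Of the 3 genes for transport of acyl groups into mitochondria, Cpt2 and Crat rose at PBO 1500 mg/kg and Cpt1a was not called. Cpt2, the inner membrane carnitine palmitoyltransferase, had signals of 2940.1, 2382 and 2503 in PBO controls and 4828, 4266 and 7611 at 1500 mg/kg. Its change was 1.05 ± 0.18 (SE, n = 3 per group; limma adjusted p = 0.00168), and all dosed animals lay above all controls. Crat, the carnitine acetyltransferase, had signals of 587, 292 and 442 in controls and 1088, 624 and 2908 at the top dose, a change of 1.53 ± 0.42 (limma adjusted p = 0.0259). The groups did not overlap, but the highest control and the lowest dosed animal were close. Without control replicate 2 or control replicate 3 the call of Crat was lost (adjusted p up to 0.1), and over all single arrays left out its change ran from 0.93 to 2.03. Cpt1a, the outer membrane enzyme that controls entry of long chains, had signals of 3183, 4211 and 5192 in controls and 2029.8, 1625 and 13551 at 1500 mg/kg. Replicates 1 and 2 lay below every control and replicate 3 above every control, and the change of -0.21 ± 0.57 was not called (limma adjusted p = 0.841). Without replicate 3, Cpt1a was lower by limma, with a change of -1.17 ± 0.22 (adjusted p = 0.00226). A second, dimmer Cpt1a probe set had the opposite sign with all arrays, 0.39 ± 0.65 (limma adjusted p = 0.735). Its change without replicate 3 is not given here.

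Among the 11 mitochondrial beta-oxidation enzymes, 8 rose at PBO 1500 mg/kg, none fell, and Acadm, Hadh and Echs1 were not called. Eci1, the enoyl-CoA isomerase for unsaturated chains, rose most of these: its signals were 6037, 5508 and 5536 in controls and 18714, 14450.3 and 26568 at 1500 mg/kg, a change of 1.76 ± 0.20 (limma adjusted p = 9.12e-05). The dosed animals lay well apart from the controls. A second, dim Eci1 probe set gave 0.85 ± 0.48 and was not called (adjusted p = 0.248). Hadhb, the beta subunit of the mitochondrial trifunctional protein, had signals of 8058, 8699 and 8434 in controls and 17057, 16837 and 18275 at 1500 mg/kg. Its change was 1.05 ± 0.09 (limma adjusted p = 1.79e-05), and the 3 dosed animals were close together. Decr1, the dienoyl-CoA reductase, had signals of 10778, 10872 and 10913 in controls and 17622, 19111 and 23107 at the top dose, a change of 0.87 ± 0.10 (limma adjusted p = 0.000132). The controls of Decr1 were nearly equal and lay apart from all 9 dosed animals.

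The other members of the chain moved by less. The dehydrogenases for very long, long and short chains, Acadvl, Acadl and Acads, rose by 0.62 ± 0.14, 0.66 ± 0.13 and 0.70 ± 0.12. Hadha, the alpha subunit of the trifunctional protein, rose by 0.67 ± 0.16, although another, dim probe set of Hadha gave -0.47 ± 0.52 (not called). Acaa2, the mitochondrial thiolase, rose by 0.56 ± 0.13, while its second probe set, with a change of 0.27 ± 0.51, was not called. Acadm, the medium-chain dehydrogenase, did not follow the other 3 dehydrogenases: its signals were 21125, 21885 and 24409 in controls and 21300.3, 20857 and 22473 at 1500 mg/kg, with overlapping groups and a change of -0.06 ± 0.09 (limma adjusted p = 0.698). Hadh and Echs1, which carry out the middle steps for shorter chains, had changes of -0.11 ± 0.13 and -0.16 ± 0.14 and were not called.

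Of the 3 electron transfer members, Etfb was the single member called lower at PBO 1500 mg/kg. Etfb encodes the beta subunit of electron transfer flavoprotein. Its signals were 12870.2, 14759 and 12721 in controls and 9369, 9620.3 and 8445 at the top dose, a change of -0.55 ± 0.11 (limma adjusted p = 0.00329). All dosed animals lay below all controls. Etfa, the alpha subunit, and Etfdh, the dehydrogenase that takes over the electrons, had changes of 0.29 ± 0.10 and 0.31 ± 0.15 and were not called (limma adjusted p = 0.0659 and 0.171).

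RefSeq promoter windows of 300 bases (build GRCr8, 250 before and 50 after a gene's start) were held for 25 of the 31 listed genes, and none for Acadl, Decr1, Acaa2, Ech1, Cyp4a1 and Vnn1. Both strands were searched for the direct repeat that PPAR binds with its partner RXR, AGGTCA followed by any 1 base and by AGGTCA again. A looser repeat, AGGNCA on both sides of 1 base, contains the exact repeat. The single hexamer AGGTCA, which every exact repeat contains, was searched as well. The exact repeat was in 0.0538% and the looser repeat in 0.415% of all 33469 windows, and in 0 of the 25 members' windows. The hexamer was in 7 of 25 members' windows, those of Acadvl, Hadhb, Echs1, Eci1, Eci2, Hsd17b4 and Cat, and in 16.2% of all windows. The following 250 bases before the start are shown because they set members that rose at PBO 1500 mg/kg (Eci1, Acadvl and Hadha) beside members that were not called (Echs1 and Cat). They lie at chr10:13961000-13961249 on the plus strand for Eci1, chr10:55236706-55236955 on the minus strand for Acadvl, chr6:31907551-31907800 on the plus strand for Hadha, chr1:204333507-204333756 on the minus strand for Echs1 and chr3:110329527-110329776 on the minus strand for Cat. Each is written 5′ to 3′ on the gene's strand, with the hexamer or its complement TGACCT in capitals.
Eci1: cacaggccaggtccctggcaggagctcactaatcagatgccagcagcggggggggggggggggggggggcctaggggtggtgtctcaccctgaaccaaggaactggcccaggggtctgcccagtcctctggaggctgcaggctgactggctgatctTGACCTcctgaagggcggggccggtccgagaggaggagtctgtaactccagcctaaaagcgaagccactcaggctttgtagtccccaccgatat
Acadvl: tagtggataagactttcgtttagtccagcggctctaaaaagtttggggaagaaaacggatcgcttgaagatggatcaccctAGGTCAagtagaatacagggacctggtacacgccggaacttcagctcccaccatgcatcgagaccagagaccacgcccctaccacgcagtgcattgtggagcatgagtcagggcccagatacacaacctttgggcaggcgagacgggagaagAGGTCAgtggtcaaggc
Hadha: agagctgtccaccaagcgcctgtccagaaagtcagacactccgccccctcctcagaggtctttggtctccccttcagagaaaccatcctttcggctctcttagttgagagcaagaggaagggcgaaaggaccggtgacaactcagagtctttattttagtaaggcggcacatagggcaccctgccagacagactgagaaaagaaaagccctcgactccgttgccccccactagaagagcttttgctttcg
Echs1: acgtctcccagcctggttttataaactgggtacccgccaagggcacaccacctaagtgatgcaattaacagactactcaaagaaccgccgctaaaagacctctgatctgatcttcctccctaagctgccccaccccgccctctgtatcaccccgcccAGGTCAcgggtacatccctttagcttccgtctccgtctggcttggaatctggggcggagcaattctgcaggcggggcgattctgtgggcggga
Cat: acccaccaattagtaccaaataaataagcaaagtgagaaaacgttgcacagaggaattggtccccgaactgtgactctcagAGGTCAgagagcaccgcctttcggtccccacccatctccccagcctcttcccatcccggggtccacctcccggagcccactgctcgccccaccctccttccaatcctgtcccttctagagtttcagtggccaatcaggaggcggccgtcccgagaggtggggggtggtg
The hexamer stands in windows of members that rose and of members that were not called, and Hadha holds none. Acadvl holds 2 copies, with first bases 169 and 17 bases before the start. In Eci1 it is on the opposite strand, covering bases 94 to 89 before the start. Hadha and Hadhb, whose products form 1 enzyme, start 301 bases apart on opposite strands, so their windows share 200 bases. A match of letters is a description of these windows and not a binding site.

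In the peroxisomal group, 5 of the 6 members with a probe set rose at PBO 1500 mg/kg, none fell, and Cat was not called. Ehhadh, the bifunctional enzyme that hydrates and dehydrogenates straight chains, had signals of 5685, 3717 and 5094 in PBO controls and 25584, 13497 and 19169 at 1500 mg/kg, a change of 1.98 ± 0.23 (limma adjusted p = 9.85e-05). Ech1, a dienoyl-CoA isomerase, had signals of 4355, 3911 and 4520.4 in controls and 15303, 11145 and 17469 at the top dose, a change of 1.75 ± 0.15 (limma adjusted p = 1.52e-05). For both genes the groups did not overlap, and replicate 2 was the lowest of the dosed animals. Pex11a, a membrane protein that promotes peroxisome division, had signals of 709, 527 and 695 in controls and 1737, 1014 and 3708 at 1500 mg/kg, a change of 1.53 ± 0.34 (limma adjusted p = 0.00854). The groups were apart, with a wide spread among the dosed animals, and the change was 1.04 ± 0.22 without replicate 3 (adjusted p = 0.0058). A second Pex11a probe set gave 2.02 ± 0.41 (limma adjusted p = 0.00487).

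Hsd17b4, the bifunctional enzyme for branched and very long chains, rose by 0.62 ± 0.11 and Eci2, a second enoyl-CoA isomerase, by 0.50 ± 0.15. The call of Eci2 was lost without any single control, or without replicate 1 or 3 of the dosed animals (limma adjusted p up to 0.12), and its change was 0.29 ± 0.10 without replicate 3 (adjusted p = 0.0644). Cat encodes catalase, which breaks down the peroxide made by peroxisomal oxidases. Its signals were 32838, 33794 and 38095 in controls and 30330.0, 32359 and 27307 at 1500 mg/kg. The 3 dosed animals lay below the 3 controls, and the change of -0.22 ± 0.10 was not called (limma adjusted p = 0.15). The probe set shared by Acaa1a and Acaa1b, the peroxisomal thiolases, was higher by 1.72 ± 0.19 (limma adjusted p = 8.08e-05), and the signal cannot be split between the 2 genes.

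The thioesterase Acot2 and the omega-hydroxylase Cyp4a1 rose at PBO 1500 mg/kg, and the thioesterase Acot1 was high in the dosed animals without a usable test. Acot1 frees fatty acids from coenzyme A in the cytosol. Its signals were 24.1, 22.7 and 27.7 in controls and 1554, 252 and 12669.9 at 1500 mg/kg. Every dosed animal was above the controls, and the dosed animals were far apart from each other. The mean of the other 9 PBO arrays was 5.74 on the log2 scale, below the filter at 6.22, and the probe set passed only because the dosed group was high. Its change has a dim control level beneath it and is given by these signals alone. Acot2, the mitochondrial thioesterase whose gene starts 24434 bases from that of Acot1 on chromosome 6, had signals of 1049, 1197 and 996 in controls and 2281, 1581 and 4999 at the top dose. Its change was 1.27 ± 0.32 (limma adjusted p = 0.0161), and 0.81 ± 0.20 without replicate 3 (adjusted p = 0.0149). Its other probe sets gave 0.93 ± 0.22 and 2.12 ± 0.32, both called, while the call of the main probe set was lost without control replicate 1 or 3 (adjusted p up to 0.0581). Acot1 and Acot2 are close copies, and reads of a shared sequence by their probes were not tested. Cyp4a1, which hydroxylates the far end of fatty acids, had signals of 6151, 4571 and 6927 in controls and 14358, 10506 and 14151 at 1500 mg/kg, with separate groups and a change of 1.15 ± 0.23 (limma adjusted p = 0.00506).

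Of the 4 further PPARalpha targets, Vnn1 rose at PBO 1500 mg/kg and Plin2, Pdk4 and Angptl4 were not called. Vnn1, a pantetheinase, had signals of 595, 743 and 777 in controls and 6702, 5472 and 8176 at the top dose, a change of 3.23 ± 0.19 (limma adjusted p = 5.28e-07). It was the member with the smallest adjusted p. Plin2, the coat protein of lipid droplets, had signals of 9882, 11322 and 11639.5 in controls and 7384, 6016 and 28172 at 1500 mg/kg, a change of -0.02 ± 0.40 (limma adjusted p = 0.98). Pdk4, the kinase that closes pyruvate dehydrogenase, had signals of 2605, 1570.0 and 2491 in controls and 3191, 1019 and 13573 at the top dose, a change of 0.70 ± 0.63 (adjusted p = 0.496). In both genes replicate 3 was far above the controls, while replicate 2 lay below them. Without replicate 3, Plin2 was lower, with a change of -0.71 ± 0.12 (limma adjusted p = 0.00133), and Pdk4 was at -0.26 ± 0.37 (adjusted p = 0.695). Angptl4, a secreted inhibitor of lipoprotein lipase, had signals of 2975, 2149.6 and 5853 in controls and 2033, 1813 and 2569.9 at 1500 mg/kg, with overlapping groups and a change of -0.66 ± 0.35 (limma adjusted p = 0.223).

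PBO 1500 mg/kg replicate 3 was the highest of its 3 animals for 25 of the 30 members, replicate 2 for 3 and replicate 1 for 2. The median member lay 0.56, 0.42 and 1.09 log2 units above the control mean in replicates 1, 2 and 3. The ratio of its signal to the mean of the other 2 animals was 14.0 for Acot1, 7.42 for Cpt1a, 6.45 for Pdk4 and 4.21 for Plin2, against 1.08 for Hadhb and 0.981 for Ehhadh. Without this animal, 18 members (Acot1 included) were higher and 3 lower at 1500 mg/kg, where Cpt1a and Plin2 joined Etfb among the lower and Eci2 lost its call. In that fit 1504 of all 18625 probe sets were higher and 1675 lower, a share of 17.1% called.

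**Figure D2:**
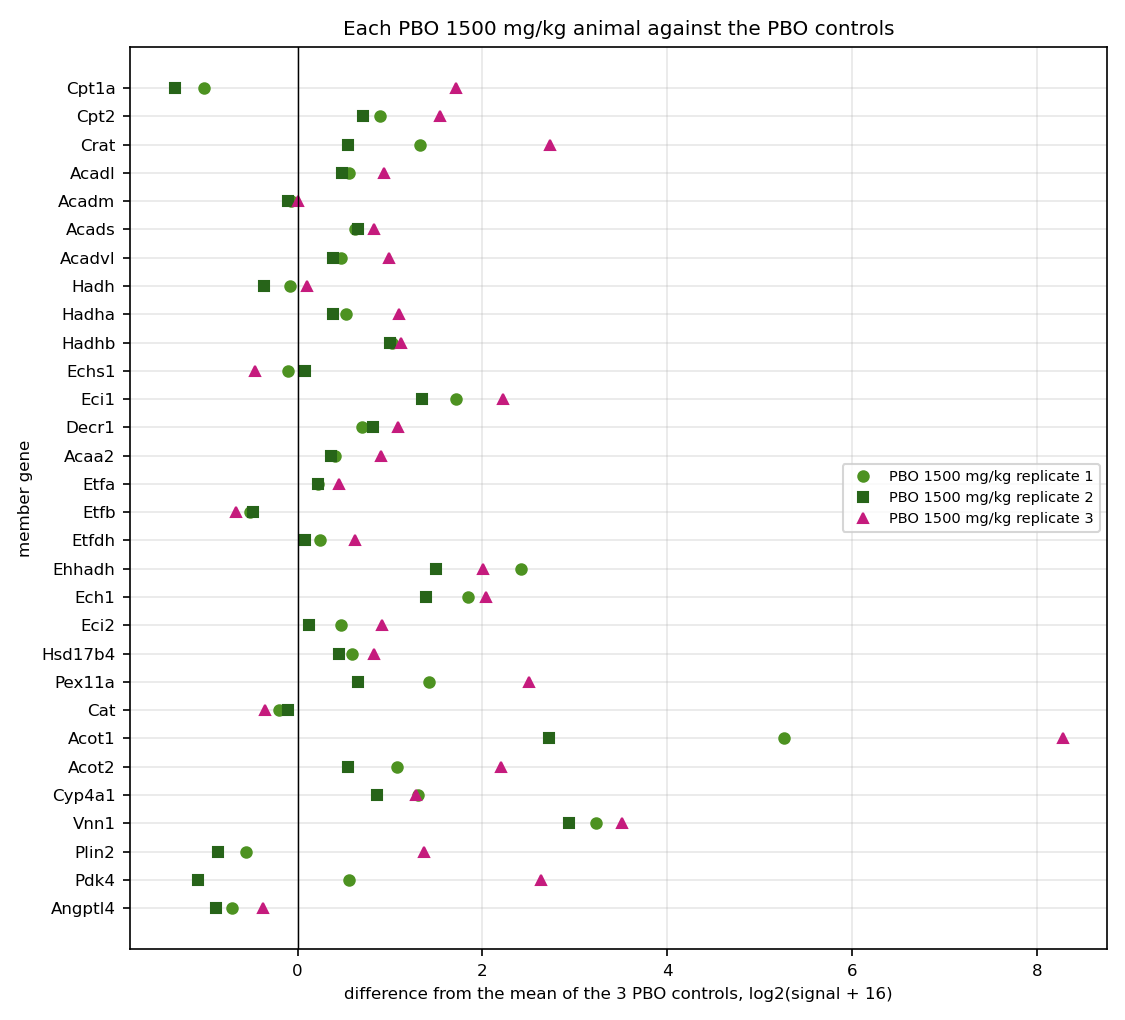
Points give log2(signal + 16) of each PBO 1500 mg/kg animal minus the mean of the 3 PBO controls, 1 row per member and 1 symbol per animal. Replicate 3 (triangles) lies to the right in 25 of 30 members and on the other side of 0 from replicates 1 and 2 in Cpt1a, Plin2 and, by little, Hadh and Acadm, while the 3 animals are close together in Hadhb.

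Lower PBO doses addressed how much of this pattern was present before the top dose. At 500 mg/kg, 4 of 30 members were higher and none was lower, while 0.349% of all probe sets were called higher and 0.129% lower. At 1000 mg/kg, 6 were higher and none was lower, against 1.88% and 1.23% of all probe sets. The median change of the members was 0.27 at 500 mg/kg and 0.25 at 1000 mg/kg, against -0.04 and -0.05 over all probe sets. All 3 dosed animals lay above all 3 controls for 14 of 30 members at each dose, where 8.57% of all probe sets did so at 500 mg/kg and 12% at 1000 mg/kg. At an unadjusted p under 0.05, limma had 12 members higher and 0 lower at 500 mg/kg, and 10 higher and 2 lower at 1000 mg/kg. The share of all probe sets at that unadjusted threshold was not computed, so these counts have no background and add no support. The comparisons with 500, 1000 and 1500 mg/kg share their 3 control animals.

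Vnn1 had signals of 2747, 1739 and 2079 at 500 mg/kg and 3142, 2914 and 3883 at 1000 mg/kg, above all controls at both doses. Its changes were 1.60 ± 0.19 and 2.21 ± 0.19 (limma adjusted p = 0.00115 and 4.59e-05). Eci1 had signals of 14569.9, 11037 and 10889 at 500 mg/kg and 13938, 9876 and 12931 at 1000 mg/kg, which overlapped each other and lay apart from the controls. Its changes were 1.08 ± 0.20 and 1.09 ± 0.20 (limma adjusted p = 0.0314 and 0.0105). Hadhb had signals of 12913, 10873 and 11542 at 500 mg/kg and 12129, 11009.6 and 11659 at 1000 mg/kg, and changes of 0.48 ± 0.09 and 0.46 ± 0.09 (limma adjusted p = 0.0457 and 0.0187). Decr1 had signals of 16778, 16440.3 and 17341 at 500 mg/kg and 16293, 15629 and 16819 at 1000 mg/kg, and changes of 0.63 ± 0.10 and 0.58 ± 0.10 (limma adjusted p = 0.0131 and 0.00851). These 4 genes were the members called at 500 mg/kg. Ech1 and Ehhadh were called in addition at 1000 mg/kg, with changes of 1.02 ± 0.15 and 1.10 ± 0.23 (limma adjusted p = 0.00346 and 0.0202), after 0.71 ± 0.15 and 1.05 ± 0.23 at 500 mg/kg (not called).

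Calls at the lower doses depended on single arrays. At 500 mg/kg only Vnn1 was called whichever array of both groups was left out: the calls of Hadhb, Eci1 and Decr1 were lost without any 1 of the 6 arrays, which left 1 member called. In those fits 0.279% to 0.354% of all probe sets were called. Without PBO 1500 mg/kg replicate 3, which enters the common spread estimate, 9 members were called at 500 mg/kg, Cpt2, Acaa2, Ehhadh, Ech1 and Pex11a being the added ones. The share of all probe sets called there went from 0.478% to 1.99% in the same fit. At 1000 mg/kg, Decr1, Ech1 and Vnn1 were called whichever array was left out, and the count was 3 without 1000 mg/kg replicate 1 or replicate 3, and 4 without control replicate 2 or 3. In the same order, those fits called 1.37%, 1.43%, 1.41% and 1.51% of all probe sets. Without PBO 1500 mg/kg replicate 3 the member count was 11, with Cpt2, Hsd17b4 and Pex11a added as higher and Etfb and Plin2 as lower, and the share of all probe sets called went from 3.12% to 7.77%. In that fit Plin2 had a change of -0.82 ± 0.11 at 1000 mg/kg (limma adjusted p = 0.000511), from signals of 6835, 5792 and 5976, all below the controls.

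From 500 to 1000 mg/kg, 0 of 30 members passed the test with limma, with an adjusted p of at least 0.84, and 0.0107% of all probe sets did. At an unadjusted p under 0.05 there was 1 higher, Vnn1, and 1 lower, Acadm, with no share of all probe sets computed at that threshold. From 1000 to 1500 mg/kg, 4 members were higher and none was lower, with 0.612% of all probe sets higher and 0.591% lower. They were Hadhb (0.58 ± 0.09, limma adjusted p = 0.0134), Ech1 (0.74 ± 0.15, adjusted p = 0.0406) and Vnn1 (1.02 ± 0.19, adjusted p = 0.0258), beside Acot1, which passed the filter only through the 1500 mg/kg group and leaves 3 of 29 without it. Each of these 4 calls was lost without some array, and the count was 0 without 1000 mg/kg replicate 2, 1 without its replicate 1, 2 without its replicate 3, 2 without 1500 mg/kg replicate 1 and 12 without 1500 mg/kg replicate 2. The share of all probe sets called moved likewise, from 1.2% with all arrays to 0.0698%, 0.338%, 0.446%, 1.33% and 4.96% in those 5 fits. Without 1500 mg/kg replicate 3, Hadhb and Vnn1 were called, Ech1 was not (0.60 ± 0.14, limma adjusted p = 0.0527), and Cpt1a was lower by -0.95 ± 0.22 (adjusted p = 0.0445), while 1.66% of all probe sets were called. Of its 1500 mg/kg change, Decr1 had 73.0% at 500 mg/kg and 66.9% at 1000 mg/kg, and Eci1 61.5% and 61.9%. Vnn1 had 49.5% and 68.3%, Hadhb 46.2% and 44.3%, and Ehhadh 52.9% and 55.4%. The signals of Acot1 were 47.4, 25.1 and 33.1 at 500 mg/kg and 43.9, 63.5 and 68.0 at 1000 mg/kg.

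In a fit of a straight line on dose, 18 members (17 without Acot1) had a rising and 1 a falling slope per 500 mg/kg, against 7.92% and 8.84% of all probe sets. Vnn1 gained 1.03 ± 0.08 log2 units per step (limma adjusted p = 1.52e-06), Ech1 0.56 ± 0.05 (adjusted p = 9.53e-06) and Ehhadh 0.60 ± 0.08 (adjusted p = 0.000252). Etfb had a trend of -0.19 ± 0.03 per step (limma adjusted p = 0.00143). With each of the 12 arrays left out in turn, the slope of Crat stayed called for 3 and that of Acaa2 for 6 (adjusted p up to 0.133 and 0.114). Signals of the remaining genes at 500 and 1000 mg/kg ran as follows. Ehhadh had 9508, 8876 and 11294, then 10313, 8252 and 12411, and Ech1 7128, 6167 and 7649, then 7737, 8764 and 9451. Pex11a had 1391, 1241 and 1249, then 1403, 992 and 1482, apart from the controls at both doses but not called. Cyp4a1 had 10241, 7040.0 and 9029.9, then 7890.1, 6358 and 12292, and overlapped the controls at 1000 mg/kg. Acadm had 23081, 22998 and 23079, then 19859, 18623 and 18831, so that the 1000 mg/kg animals lay below the controls without a call (-0.23 ± 0.09, limma adjusted p = 0.207).

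**Figure D3:**
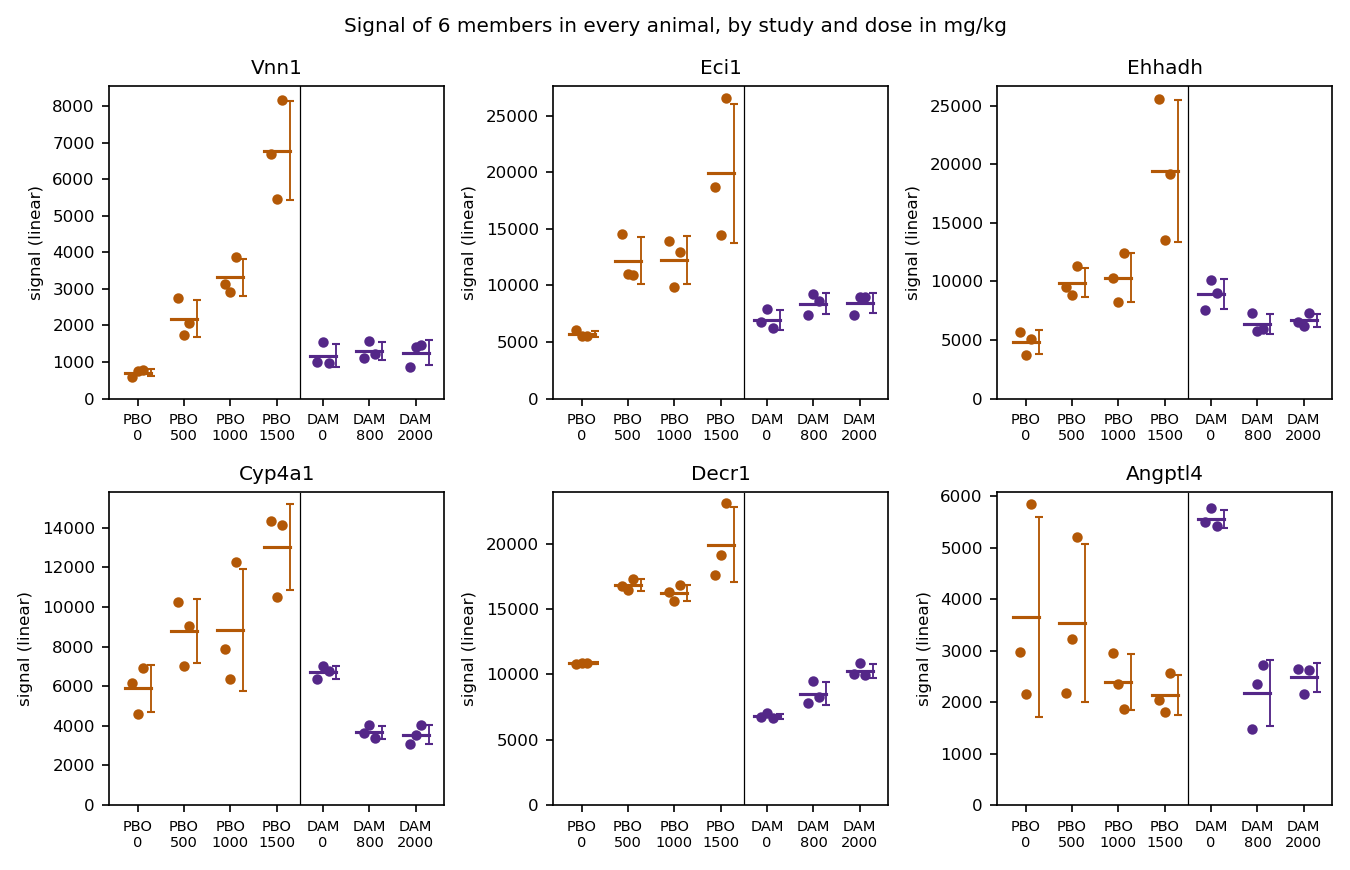
Linear signal of 6 members in each animal, with orange points for the 4 PBO groups and purple points for the 3 DAM groups, the group mean as a horizontal line and its SD as an error bar (n = 3). Vnn1 climbs from a mean of 705 to 6783 over the PBO doses and stays between 1177 and 1304 over the DAM doses, and Cyp4a1 and Angptl4 are lower in both dosed DAM groups than in DAM controls.

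Dammar resin gave a smaller and mixed picture. At 2000 mg/kg, 4 of 29 tested members were higher and 4 lower, with 6.22% of all probe sets higher and 6.11% lower, and at 800 mg/kg 1 was higher and 4 lower, with 2.16% and 1.62%. Acot1, at signals of 1.38 to 9.59 in DAM controls, was below the filter in this study and was not tested. The median change of the members was 0.13 at 2000 mg/kg and 0.10 at 800 mg/kg, against -0.04 and -0.02 over all probe sets. At 2000 mg/kg the dosed animals lay above all controls for 9 of 30 members and below them for 5, where 14.2% and 16.6% of all probe sets did so. The comparisons with 800 and 2000 mg/kg share their 3 controls.

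The 4 members higher at DAM 2000 mg/kg were mitochondrial. Decr1 had signals of 6758, 7019 and 6648 in DAM controls, 7823, 9486 and 8253 at 800 mg/kg and 10029.9, 10912 and 9945 at 2000 mg/kg. Its changes were 0.32 ± 0.08 and 0.59 ± 0.08 (limma adjusted p = 0.0422 and 0.000347), and the 3 groups did not overlap. The call at 800 mg/kg was lost without any single control or without replicate 2 or 3 of that dose (adjusted p up to 0.149). Acaa2 had signals of 17168, 22086 and 18598 in controls and 25289, 26372 and 24121 at 2000 mg/kg, a change of 0.40 ± 0.08 (limma adjusted p = 0.00865), and a second probe set gave 0.59 ± 0.16 (adjusted p = 0.0324). Etfa had signals of 8309, 9496 and 9068 in controls and 11325, 11172 and 11144 at 2000 mg/kg, a change of 0.33 ± 0.06 (limma adjusted p = 0.00558). In both genes every dosed animal was above every control. Cpt2 had signals of 2909, 3037 and 2522 in controls and 3572, 3553 and 3556 at 2000 mg/kg, a change of 0.34 ± 0.09 (limma adjusted p = 0.0225), which was not called without control replicate 3 or any single dosed animal (adjusted p up to 0.0842).

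The members lower at DAM 2000 mg/kg were Cyp4a1, Angptl4, Plin2 and Ehhadh. Cyp4a1 had signals of 6362, 6993 and 6762 in DAM controls, 3645, 4026 and 3375 at 800 mg/kg and 3097, 3511 and 4046 at 2000 mg/kg. Its changes were -0.86 ± 0.10 and -0.92 ± 0.10 (limma adjusted p = 0.000417 and 6.67e-05), and both dosed groups lay below the controls and overlapped each other. Angptl4 had signals of 5506, 5763 and 5415 in controls, 1470.2, 2349 and 2711 at 800 mg/kg and 2652, 2154 and 2629.6 at 2000 mg/kg. Its changes were -1.39 ± 0.17 and -1.17 ± 0.17 (limma adjusted p = 0.000726 and 0.000808), again with both dosed groups below the controls. Plin2 had signals of 10749, 12587 and 10388 in controls, 9557, 8547 and 10094 at 800 mg/kg and 6953, 6989.6 and 7271 at 2000 mg/kg. Its change was -0.66 ± 0.08 at 2000 mg/kg (limma adjusted p = 0.000285) and -0.26 ± 0.08 at 800 mg/kg (not called). A second Plin2 probe set was called at both doses, with -0.59 ± 0.15 and -0.85 ± 0.15 (limma adjusted p = 0.0457 and 0.00256).

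Ehhadh had signals of 7563, 10138 and 9044 in DAM controls, 7299, 5746 and 5932 at 800 mg/kg and 6507, 6203 and 7294 at 2000 mg/kg, all dosed animals being below all controls. Its changes of -0.49 ± 0.12 and -0.41 ± 0.12 passed narrowly (limma adjusted p = 0.0345 and 0.0362). Both calls were lost without control replicate 2 or 3, without either of 2 dosed animals, and under median scaling, with adjusted p up to 0.152 and 0.199 over the settings tried. Pdk4 was lower at 800 mg/kg only by its main probe set: signals were 2746, 2510.1 and 2766 in controls, 1228, 1250.0 and 1715 at 800 mg/kg and 3013, 2225 and 2679 at 2000 mg/kg. The changes were -0.94 ± 0.13 and -0.03 ± 0.13 (limma adjusted p = 0.00175 and 0.918). The probe sets of Pdk4 disagreed, since the second gave -0.65 ± 0.15 at 800 mg/kg and -0.52 ± 0.15 at 2000 mg/kg (limma adjusted p = 0.033 and 0.0414). Between 800 and 2000 mg/kg, Pdk4 was higher by 0.92 ± 0.13 (limma adjusted p = 0.00456) by the main probe set and by 0.13 ± 0.15 by the second (adjusted p = 0.802), and Plin2 was lower by -0.41 ± 0.08 (adjusted p = 0.0416). This Plin2 call was lost without any single 2000 mg/kg animal or without 800 mg/kg replicate 1 or 3. In that step 0.392% of all probe sets were higher and 0.719% lower.

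The other members showed little movement with dammar resin. Cpt1a had signals of 2736, 4359 and 3737 in DAM controls and 4528, 3294 and 4602 at 2000 mg/kg, which overlapped (0.21 ± 0.17, limma adjusted p = 0.491). Crat had a larger change of 0.72 ± 0.30 but was not called (adjusted p = 0.15), with 1 low control: signals were 574, 494 and 179 in controls and 607, 652 and 612 at 2000 mg/kg. Vnn1, with signals of 1004, 1554 and 973 in controls and 854, 1422 and 1466 at 2000 mg/kg, had a change of 0.08 ± 0.22 (limma adjusted p = 0.866). Eci1 had signals of 6744, 7929 and 6215 in controls and 7399, 8934 and 8971 at 2000 mg/kg, Hadhb 6379.8, 6878 and 6881 and then 6963, 7561 and 6939, and Ech1 3246, 3663 and 3859 and then 4055, 4628 and 3894. Their changes were 0.28 ± 0.11, 0.09 ± 0.07 and 0.22 ± 0.12, none of them called. Pex11a had signals of 1172, 1149 and 1160.4 in controls and 889, 1161 and 1209 at 2000 mg/kg, Acot2 1048, 1445 and 1299.8 and then 1353, 1605 and 1534, and Cat 29155, 33356 and 30423 and then 35694, 30734 and 30426. These 3 genes overlapped between the groups. Acadm, at 15989.6, 18914 and 17922 in controls and 16918, 16636 and 16764 at 2000 mg/kg, had a change of -0.07 ± 0.07.

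**Figure D4:**
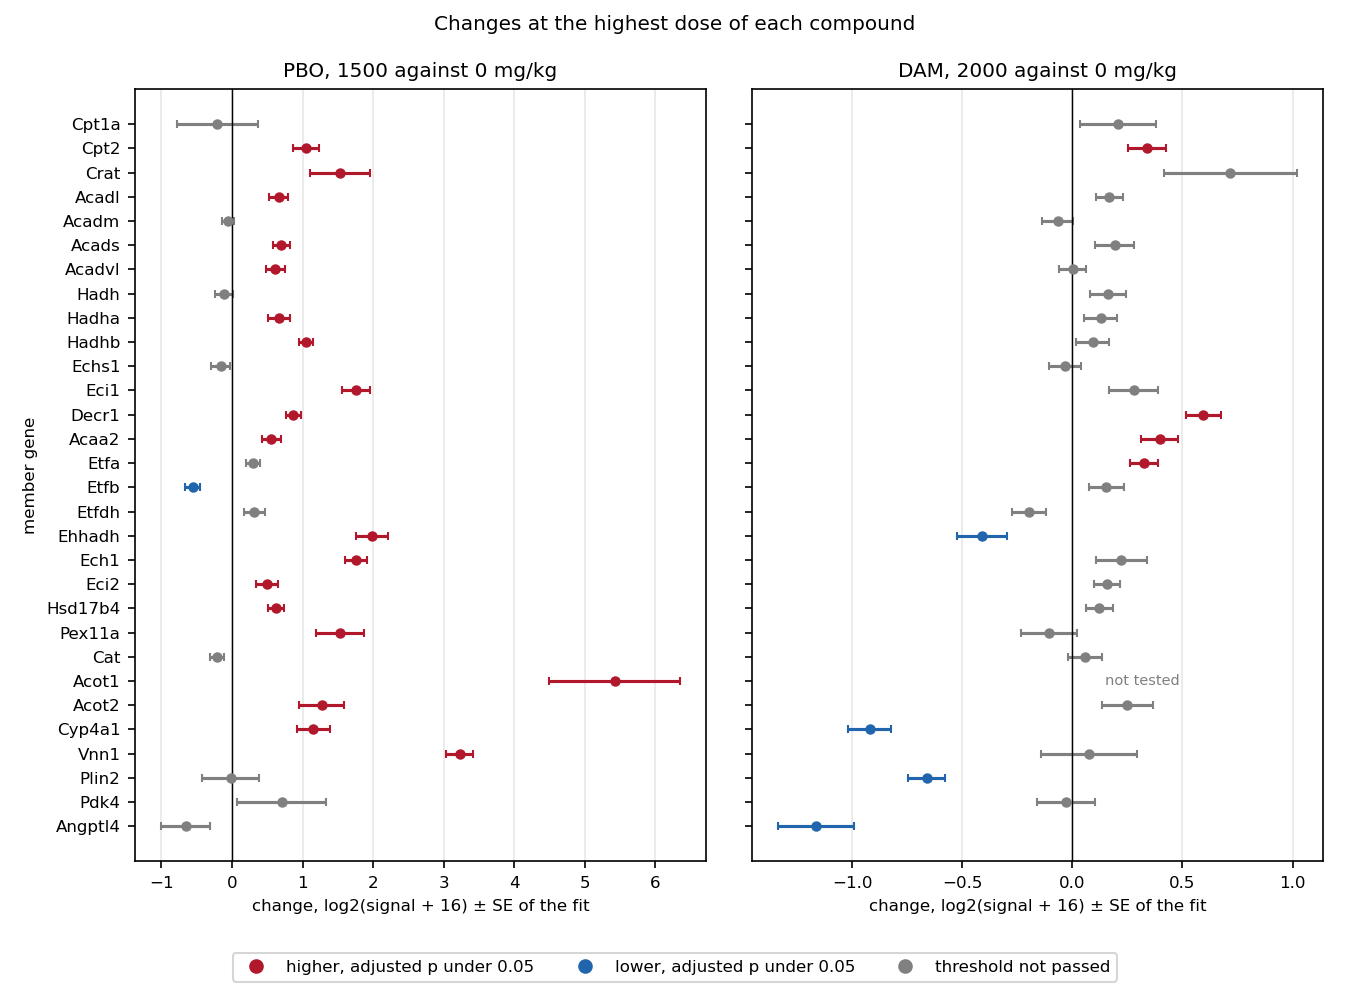
Change of each member at the highest dose of PBO (left) and DAM (right) on the log2(signal + 16) scale, with the SE of the fit (n = 3 animals per group) and colour for the call. The axes differ in range, the left reaching past 6 and the right staying between -1.5 and 1.2. PBO has 19 members called higher, among them Acot1, which passed the filter only through the dosed group, and 1 lower, and DAM 4 and 4.

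The effects of the highest doses were compared in 1 fit over all 21 arrays, in which 29 members were tested. The PBO effect exceeded the DAM effect for 9 members and was below it for 1, against 2.14% and 2.77% of all probe sets, with a median difference of 0.51 for the members and -0.04 for all probe sets. The widest differences were those of Vnn1 (3.15 ± 0.32, limma adjusted p = 1.15e-05), Ehhadh (2.39 ± 0.28, adjusted p = 5.87e-05) and Cyp4a1 (2.07 ± 0.28, adjusted p = 0.000259). Ehhadh and Cyp4a1 were called higher with PBO and lower with DAM. Pex11a, Ech1, Eci1 and Hadhb differed by 1.63 ± 0.41, 1.53 ± 0.21, 1.48 ± 0.25 and 0.96 ± 0.12, and Etfb by -0.71 ± 0.13. Acadvl (0.62 ± 0.16) and Hsd17b4 (0.50 ± 0.13) passed as well, but these calls and that of Pex11a were lost when certain single arrays were left out, among them control replicate 2 of either study (limma adjusted p up to 0.0763, 0.0896 and 0.0748). The count was 17 without PBO 1500 mg/kg replicate 2, where the share of all probe sets called went from 4.91% to 7.65%.

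Decr1, Acaa2 and Cpt2 were called higher with both compounds, which is 3 of the 19 members higher at PBO 1500 mg/kg and 3 of the 4 higher at DAM 2000 mg/kg. Their differences of effect were 0.27 ± 0.13, 0.16 ± 0.17 and 0.71 ± 0.21, none called (limma adjusted p = 0.252, 0.658 and 0.0623). A further 13 members were higher with PBO and tested but not called with DAM, and for several of them, such as Acadl (0.49 ± 0.15, limma adjusted p = 0.0712) and Acads (0.51 ± 0.15, adjusted p = 0.0505), the difference itself did not pass. Acadm, Cat, Cpt1a, Echs1, Etfdh, Hadh and Pdk4 were called at neither top dose. The probe set shared by Acaa1a and Acaa1b differed by 1.77 ± 0.23 (limma adjusted p = 0.00016), with a change of -0.05 ± 0.09 at DAM 2000 mg/kg.

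Other genes of the pathway came from lists fixed by name, to be read against 8.08% of all probe sets higher and 9.26% lower at PBO 1500 mg/kg and 6.22% and 6.11% at DAM 2000 mg/kg. Of 14 listed further mitochondrial fatty acid genes, 12 were tested at PBO 1500 mg/kg, where 6 were higher and 2 lower with a median change of 0.57, and 13 at DAM 2000 mg/kg, where 4 were higher and 1 lower with a median of 0.12. Acad9, an acyl-CoA dehydrogenase that also serves assembly of respiratory complex I, had signals of 1593, 1768 and 1783 in PBO controls and 4175, 3949 and 4574 at 1500 mg/kg. Its changes were 1.29 ± 0.14 with PBO and 0.53 ± 0.11 with DAM (limma adjusted p = 5.74e-05 and 0.00708), both groups lying above their controls. Slc25a20, the carnitine-acylcarnitine carrier, rose by 0.89 ± 0.16 with PBO (limma adjusted p = 0.00259), and Acad11, another dehydrogenase, by 1.14 ± 0.21 (adjusted p = 0.00247). Slc22a5, the carnitine importer, rose by 1.41 ± 0.32 with PBO and 0.65 ± 0.16 with DAM (limma adjusted p = 0.0097 and 0.02). Acsl1 and Mcee were lower at PBO 1500 mg/kg, by -0.30 ± 0.09 and -0.59 ± 0.15.

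Of 16 tested further peroxisomal lipid enzymes, 4 were higher and 2 lower at PBO 1500 mg/kg, with a median change of 0.17, where 2 of 16 lower is near the share of all probe sets, and 2 higher and 2 lower at DAM 2000 mg/kg, with a median of 0.05. Nudt7, a hydrolase of coenzyme A esters, rose by 1.59 ± 0.20 with PBO (limma adjusted p = 0.000206), and Acot8, a peroxisomal thioesterase, by 1.39 ± 0.19 with PBO and 0.80 ± 0.13 with DAM (adjusted p = 0.000428 and 0.00124). Acox3, an oxidase for branched chains, was lower with PBO, with a change of -0.72 ± 0.14 (limma adjusted p = 0.00311). Among 6 tested genes of the CYP4 list, which includes their partner Aldh3a2, 1 was higher and 2 lower at PBO 1500 mg/kg. None was called at DAM 2000 mg/kg, and the medians were -0.02 and -0.06. The lower genes were Cyp4f6 (-1.18 ± 0.14) and Cyp4f1 (-0.75 ± 0.11), while Cyp4a3 had 0.52 and was not called. Of 2 tested ketone body genes, Bdh1, the hydroxybutyrate dehydrogenase, was lower with PBO (-0.69 ± 0.15, limma adjusted p = 0.00667), and neither was called with DAM, with medians of -0.18 and -0.0021. At an unadjusted p under 0.05, limma had 2 of the CYP4 group lower and 0 of the ketone body genes at DAM 2000 mg/kg. No share of all probe sets was computed at that unadjusted threshold.

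Among 19 tested further lipid genes that respond to PPARalpha, 3 were higher and 2 lower at PBO 1500 mg/kg, with a median change of 0.23, and 4 were higher and none lower at DAM 2000 mg/kg, with a median of 0.11. Cidea, a lipid droplet protein, moved most: its signals were 754, 523 and 361 in PBO controls, 2107, 2285 and 2606 at 500 mg/kg, 4148, 2701 and 4901 at 1000 mg/kg and 6574, 8873 and 14506 at 1500 mg/kg. In the DAM study its signals were 693, 958 and 669 in controls, 1977, 2169.6 and 2088 at 800 mg/kg and 4017, 5160.2 and 3260.4 at 2000 mg/kg. All dosed animals of both studies lay above all controls, and the changes were 4.14 ± 0.30 and 2.39 ± 0.16 at the highest doses (limma adjusted p = 3.36e-06 and 1.89e-06). Aqp7, a glycerol channel, rose by 2.14 ± 0.29 with PBO (limma adjusted p = 0.000357), and Ucp3, a mitochondrial carrier, by 1.17 ± 0.25 with DAM (adjusted p = 0.00925). Fabp1, the liver fatty acid binding protein, had a change of -0.25 and Fgf21, a fasting hormone, of 0.14 at PBO 1500 mg/kg, neither called.

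The probe set of the receptor gene Ppara was dim, with signals of 4.56 to 38.9 in all animals except PBO 1500 mg/kg replicate 3 at 189, and lay below the filter. Of 12 tested receptors, partners and coregulators, 2 were lower and none higher at PBO 1500 mg/kg, with a median change of -0.10, Hnf4a with -0.59 ± 0.14 and Ncor1 with -0.43 ± 0.11. At DAM 2000 mg/kg 1 was higher and 2 were lower, with a median of -0.18, the coactivator Ppargc1a with 1.09 ± 0.31 (limma adjusted p = 0.036) and Ppard and Hnf4a with -0.57 ± 0.12 and -0.34 ± 0.07.

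Some markers of other cell types moved with dose. All 4 tested erythroid markers were lower at PBO 1500 mg/kg, and their summed signal was 21717 to 23029 in controls and 4375 to 10036.5 at that dose. Of 6 macrophage markers 3 were lower, with sums of 12520.4 to 14409 and 2229.9 to 9344. The single T and NK cell marker tested, Gzmb, had a change of -1.78 ± 0.38. Its mean over the PBO arrays was 6.26 log2 units, just above the filter at 6.22. It passed only with its higher control group included, so its call is no support. The 5 listed T and NK cell markers summed to 326 to 478 in controls and 166 to 206 at the top dose. One each of the adipocyte (of 2 tested), stellate (of 6), endothelial (of 4) and hepatocyte (of 7) markers was also lower, and none of the 2 striated muscle markers was called. Over all probe sets 9.26% were lower in that comparison, so 1 marker of so short a list is no result about a cell type. Sums were 679 to 747 and 171 to 791 for adipocyte, 20473.9 to 23208 and 6810.1 to 22482 for muscle, 7553 to 9931 and 2959.7 to 7909 for stellate and 8928 to 9749.8 and 6451 to 7529 for endothelial markers. The muscle sums mostly follow the probe set of Myh1, whose mean over the PBO arrays was 14.22 log2 units. Tnnt3, the brightest of the other muscle markers, had 6.25, so the muscle sums are no result about muscle. Epcam, a cholangiocyte marker, was higher with PBO 1500 mg/kg (2.06 ± 0.13) and DAM 2000 mg/kg (1.37 ± 0.14), and the cholangiocyte sums were 1096 to 1422 in PBO controls and 3465 to 4226 at 1500 mg/kg, and 670.5 to 924 in DAM controls and 1599 to 1743 at 2000 mg/kg. These sums mostly follow Epcam, whose mean over the PBO arrays was 10.59 log2 units, against 5.34 for Krt7, 7.55 for Krt19 and 7.20 for Spp1. The mean log2 value of the 4 markers was 7.13 to 8.15 in PBO controls and 7.66 to 8.24 at 1500 mg/kg, which overlap. In the DAM study it was 6.73 to 6.78 in controls and 6.81 to 7.25 at 2000 mg/kg. With DAM 2000 mg/kg, 1 of 6 macrophage and 1 of 6 stellate markers was lower, 1 hepatocyte marker was higher and 1 lower, and none of the 4 erythroid markers was called. There 6.22% of all probe sets were higher and 6.11% lower, so these single markers are likewise no result about a cell type. No marker was listed at 0 on any array. The part of these shifts in the members' changes was not tested.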

How the data were processed

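One deposited table holds linear intensity values of every probe set and animal. The submitters' processing notes name MAS5 for them, with a version that the sources used here do not state. They were analysed as log2(signal + 16) with no normalization added. Probe sets with a mean above the 40th percentile of a fit were kept (18625 per fit), and each study was fitted alone in limma (lmFit, then eBayes with trend), with the difference of effects fitted over both. The threshold was a Benjamini-Hochberg adjusted p of 0.05 across the probe sets kept. Symbols came from the platform annotation. The members, the pathway and cell type lists and the tests were chosen with earlier results of these data known. Values in every array are given for members with the 8 largest called changes at each highest dose and for 13 fixed members, and for some others beside them. Up to 3 genes per pathway list with the smallest adjusted p are named, plus a fixed few; others named were chosen after their values were seen. Alternatives were other pseudocounts (1 and 64), filters, normalizations, probe sets, fits and spread estimates, a replicate block, array weights and each array left out. The fits were tested on simulated data. Versions were R 4.3.3, limma 3.58.1, Python 3.11.15, pandas 2.3.3 and matplotlib 3.10.9.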

Additional observations from a re-analysis of the deposited data

Results flagged for a closer look

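The effect at PBO 1500 mg/kg minus that at DAM 2000 mg/kg passed limma's test, with an adjusted p under 0.05 over all probe sets, for 10 of 29 tested members. The peroxisomal members Ehhadh, Pex11a, Ech1 and Hsd17b4 had differences of 2.39, 1.63, 1.53 and 0.50 log2 units. The mitochondrial members Eci1, Hadhb and Acadvl had 1.48, 0.96 and 0.62. Cyp4a1 had 2.07 and Vnn1 3.15, while Etfb had -0.71 and was the single member with a lower effect of PBO. Compound, strain, route, duration and storage differ together between the studies and cannot be told apart.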

How the results depend on the processing

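Of 5199 values of single members under other settings, 4941 kept their side of the threshold (4749 with the same sign, 192 with the sign turned and no call on either side), 179 lost a call, 76 gained one and 3 turned sign with a call on at least 1 side: Hadha by its second probe set at PBO 1500 mg/kg (-0.47) and in the trend (-0.19), and Cpt1a from 1000 to 1500 mg/kg without PBO 1500 mg/kg replicate 3 (-0.95, in a range of -0.95 to 0.57 over the arrays left out). Counts of members called, Acot1 included, moved as follows. Without the intensity trend the counts were 1 at PBO 500 mg/kg, 3 at 1000 mg/kg, 0 from 1000 to 1500 mg/kg, 3 at DAM 800 mg/kg, 4 at DAM 2000 mg/kg and 0 from 800 to 2000 mg/kg. In the same order, those fits called 0.242%, 1.61%, 0.29%, 1.26%, 8.06% and 0.322% of all probe sets. With only the arrays of both groups the member counts were 7, 12 and 13 at the PBO doses, 0 from 1000 to 1500 mg/kg and 3 at DAM 800 mg/kg. The shares of all probe sets there were 1.44%, 7.36%, 8.32%, 0.0% and 3.48%. Array weights gave 7 members at PBO 500 mg/kg and 10 at 1000 mg/kg, and quantile normalization 2 at PBO 500 mg/kg. These settings called 1.87%, 7.75% and 0.499% of all probe sets. Without PBO 1500 mg/kg replicate 3 the member counts were 9 at 500 mg/kg and 11 at 1000 mg/kg, with 1.99% and 7.77% of all probe sets called. Without a filter the member counts were 3 at DAM 800 mg/kg and 1 from 800 to 2000 mg/kg, where median scaling gave 1 and the second probe sets 0. The shares of all probe sets were 1.77% and 0.519% without a filter, 0.864% under median scaling and 1.11% in the fit read through the second probe sets. With 1 array left out in turn, counts ran from 1 to 9 at PBO 500 mg/kg, 3 to 11 at 1000 mg/kg, 17 to 21 at 1500 mg/kg, 17 to 20 for the trend, 0 to 12 from 1000 to 1500 mg/kg, 3 to 5 at DAM 800 mg/kg, 6 to 8 at DAM 2000 mg/kg, 1 to 2 from 800 to 2000 mg/kg and 7 to 17 for the difference of effects. In the same order, shares of all probe sets called ran from 0.279% to 1.99%, 1.37% to 7.77%, 10.9% to 17.8%, 11.7% to 16.3% and 0.0698% to 4.96% for PBO. For DAM these shares ran from 2.05% to 3.09%, 8.01% to 10.1% and 0.65% to 1.06%, and for the difference of effects from 2.7% to 7.65%. The causes were not tested.

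Median scaling moved the share of higher among all called probe sets from 73.0% to 83.3% at PBO 500 mg/kg, 60.4% to 80.1% at 1000 mg/kg, 46.6% to 62.9% at 1500 mg/kg, 47.2% to 65.6% for the trend, 57.2% to 73.4% at DAM 800 mg/kg and 50.4% to 74.0% at DAM 2000 mg/kg, and the median of all probe sets at PBO 1500 mg/kg from -0.08 to 0.04. With the replicate number as a block, 5, 6 and 19 members were called at the PBO doses, 4 and 7 at the DAM doses and 1 in the DAM step. Shares of all probe sets called with the block were 0.467%, 2.55%, 16.1%, 3.38%, 11% and 0.923%, in that order. Samples of the same number in different dose groups had deviations correlated at -0.07 to 0.03 in the PBO study and -0.06 to 0.08 in the DAM study, so the numbers gave no pairing. The 3 arrays per group, and for Acot1 and Ppara a signal near the bottom of the scale, limit what could be resolved.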
